A study of Homo sapiens with 6 samples.

Results

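Human genes that span at least 500 kb of DNA were followed in MHCC97H cells after knockdown of HNRNPC. A gene belonged to the set when the position given for it in the deposited table had an end at least 500000 bases beyond its start. The rule took 132 of the 15211 genes with a position, of 15598 genes in the table. The rule itself used no expression value, but each of the 15598 genes had at least 1 count over the 6 libraries. The spans of the 132 ran from 501.054 to 2057.83 kb, with a median of 679.587 kb. All 132 are protein coding in GENCODE 29 and overlap its gene of the same name. A further 119 genes in the table reach 500000 bases only by their GENCODE 29 span. Those of them that were tested stand among the remaining genes.

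The series compared 3 libraries from cells with a hairpin against HNRNPC (shHNRNPC) with 3 libraries from cells with a control hairpin (shcontrol). Both groups were MHCC97H, a hepatocellular carcinoma line labelled as highly metastatic, and the labels tell apart 1 hairpin against HNRNPC and give no time after knockdown. RNA was sequenced after Trizol extraction. The series text calls the replicates independent without saying whether they were separate cultures, so p-values measure the spread between these libraries, which may be technical.

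hnRNP C is a nuclear protein that binds runs of uridine in nascent RNA and takes part in the choice of splice sites. It is known to keep the splicing factor U2AF2 away from sites within antisense Alu repeats, which are common in introns and begin with a run of U. Very long genes consist almost wholly of intron, take RNA polymerase II many hours to transcribe, and often encode proteins of cell adhesion, synapses and muscle. Topoisomerase I and elongation factors are known to be needed for full transcription of long genes in other cell types.

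The sequences below show what a uridine run looks like in the mature transcripts of very long genes, for 5 genes that fell and 3 that rose. Each is a window of 30 bases from the 3′ untranslated region in the last exon of the longest coding transcript of GENCODE 29 (GRCh38), written 5′ to 3′ on the gene's strand with T for U, and the capitals mark its longest run.
AFF3, chr2:99549573-99549602, minus strand, fell: accctttcacTTTTTTTTTgagacgagttt
AKAP6, chr14:32834530-32834559, plus strand, fell: agtcTTTTTTTTTTTTTTTTTTTTTaaatc
LPP, chr3:188880027-188880056, plus strand, fell: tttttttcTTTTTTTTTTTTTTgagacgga
CLSTN2, chr3:140571348-140571377, plus strand, fell: aaaagacaacTTTTTTTTTaatcatcccca
DIAPH2, chrX:97603138-97603167, plus strand, fell: ttagcatcTTTTTTTTTTTTTacaatcatt
TENM4, chr11:78655505-78655534, minus strand, rose: tctttctttcTTTTTTTTTTcatagagatg
GALNT13, chr2:154452232-154452261, plus strand, rose: tatcagggcaTTTTTTTTTctgaggtggga
FAF1, chr1:50438021-50438050, minus strand, rose: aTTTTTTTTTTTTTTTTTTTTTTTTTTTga
In AFF3 and LPP the run is followed directly by the letters gagacg, as at the start of an antisense Alu repeat. The windows of AKAP6, DIAPH2 and GALNT13 lie beyond the gene end given in the deposited table, whose positions can come from a shorter transcript. A run of at least 9 U occurred in the longest coding transcript of 36 of the 79 very long genes tested (45.6%), against 32.3% of the remaining genes, 47.3% of tested genes of 200 to 500 kb and 51.9% of the remaining genes in the middle range of the very long genes' transcript length. A run of 5 T followed by GAGAC, letters at the start of an antisense Alu that were searched on the sense strand only, occurred in 5 of the 79 (6.33%) and in 7.26% of the remaining genes. Runs in introns, which make up most of each gene, were not analysed here.

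HNRNPC itself fell to 61.5, 66.4 and 59.0 CPM in the shHNRNPC libraries, against 847, 855 and 856 CPM in the shcontrol libraries. This left 7.30% of the shcontrol level (log2 fold change -3.77, SE 0.030, adjusted p = 5.04e-55). CPM is a gene's read count scaled to the size of its library with TMM factors, and adjusted p-values are from edgeR's quasi-likelihood test with Benjamini-Hochberg adjustment over all 11831 genes tested, with a threshold of 0.05. Total counts were between 15563077 and 18328475 per library. KRT8 and KRT18, keratins of epithelial cells, were called higher, with a mean of 1159 CPM for KRT8 in shHNRNPC against 1006 CPM in shcontrol, while the hepatocyte products ALB, AFP and APOA1 were near 0 in every library. Of 20 genes listed as hepatocyte or liver cancer markers, 4 were tested, and the third called was CPS1, a liver enzyme of the urea cycle, at a mean of 33.5 CPM in shHNRNPC and 26.1 CPM in shcontrol (adjusted p = 7.55e-06). Of 24 markers of other cell types, 7 were tested, CD68 was called higher and ACTA2 lower, and their summed level was 427.6 to 429.0 CPM in shHNRNPC libraries against 482.7 to 494.8 CPM in shcontrol libraries. The part of these markers in the results was not tested.

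Very long genes gave little of the RNA in these cells. The 132 genes together took 0.110% ± 0.0012 of the counts in shHNRNPC and 0.134% ± 0.0013 in shcontrol (SD, n = 3 each). In RNA from bulk cells, fewer cells that express a gene and less of its RNA per cell cannot be told apart. Each of the 132 had at least 1 count, as did every gene in the deposited table, but only 79 had enough to be tested. Among those 79, the median level per kilobase of transcript was 0.934 CPM per kb, against 7.54 CPM per kb among the remaining tested genes. The 53 that were not tested had 1 to 53 counts over the 6 libraries (median 8), and their summed counts were 349 in shHNRNPC and 380 in shcontrol. They include MACROD2, the longest of all at 2057.83 kb, and many genes known from the nervous system, such as the splicing factor RBFOX1 and the synaptic protein RIMS1. MYT1L, a neuronal transcription factor, was the most counted of them, with 7, 6 and 9 counts in shHNRNPC and 15, 13 and 3 counts in shcontrol.

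Of the 79 tested genes, 25 were called lower in shHNRNPC (31.6%), 9 were called higher (11.4%) and 45 were not called. Among all 11831 tested genes 31.3% were called lower and 29.8% higher, 61.1% in all. The share of very long genes that fell was therefore close to that of all genes, and the share that rose was smaller, as a description with no test. Their median log2 fold change was -0.11, against -0.004 over all tested genes, and 54 of the 79 estimates were negative. The median was -0.24 without SI_3_3, -0.22 without NC_3 and -0.048 with the offset for GC content and length. The 3 shHNRNPC libraries lay wholly below the shcontrol libraries in 30 of the 79 and wholly above in 9, where the shares over all tested genes were 33% and 30.9%. These counts come from genes that passed a filter on low counts, and none of them was given a test of the set. With the GC and length offset, 20 fell and 11 rose, against 30.2% and 26.1% of all tested genes. That offset was fitted without regard to group, so it also takes up group differences that go with transcript GC content or length. With DESeq2, 23 fell and 5 rose, against 27.4% and 26.4% of all tested genes. In edgeR's test against a 1.5-fold change 3 passed as lower and 1 as higher, against 3.3% and 1.83% of all tested genes. In the authors' deposited table, 21 of the 132 had an adjusted p under 0.05 with a lower level in shHNRNPC (15.9%) and 4 with a higher one (3.03%), against 20.3% and 19.4% of all 15598 genes in that table.

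**Figure D1:**
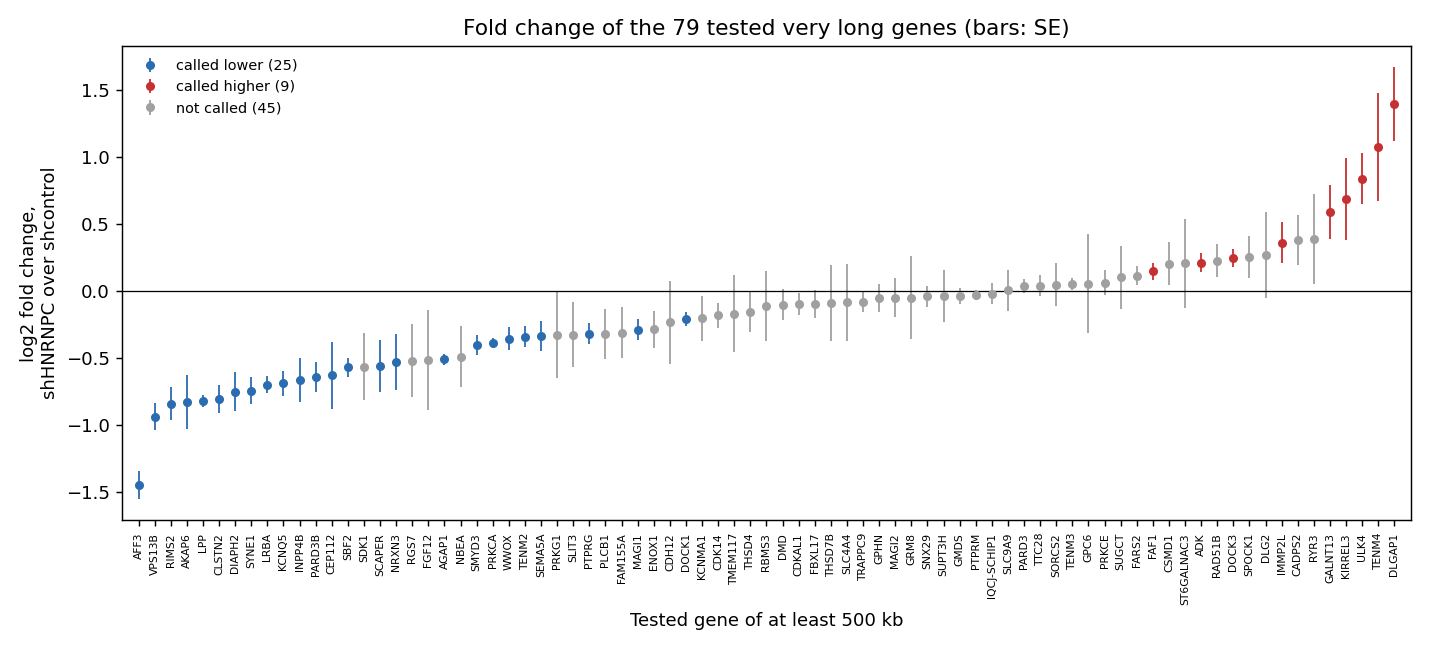
Log2 fold change (vertical axis, shHNRNPC over shcontrol) of each of the 79 tested genes of at least 500 kb, ordered from lowest to highest, with bars for the SE. The 25 genes called lower and the 9 called higher are coloured, and AFF3 and DLGAP1 stand at either end.

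AFF3 had the largest fall. It encodes a nuclear protein of the AF4 family, which is known from leukaemia fusions and whose relative AFF4 is a scaffold of the super elongation complex. AFF3 was at 7.67, 6.28 and 6.56 CPM in shHNRNPC, against 19.6, 17.0 and 19.05 CPM in shcontrol. Every shHNRNPC library was under every shcontrol library, and the level was 2.72-fold lower (log2 fold change -1.44, SE 0.103, adjusted p = 1.53e-16). The gene lies on chr2:99545419-100104716 on the minus strand in the deposited table and was the only very long gene called lower by more than 2-fold. SMYD3, a lysine methyltransferase, also fell, to 19.05, 20.1 and 20.9 CPM in shHNRNPC against 24.6, 25.8 and 28.7 CPM in shcontrol. Of the 8 very long genes for transcription factors and chromatin proteins, these were 2 of only 3 that could be tested. The third, SUPT3H, a subunit of the SAGA coactivator, was not called (log2 fold change -0.04). Over all tested genes 31.3% fell and 29.8% rose, and 3 genes are too few to compare with these shares.

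Among very long genes for the cytoskeleton, 4 of 6 tested fell, 0 rose, and the median log2 fold change was -0.68, where 31.3% of all tested genes fell and 29.8% rose. AKAP6, an anchor for protein kinase A at the nuclear envelope of muscle cells, was at 2.43, 1.71 and 2.43 CPM in shHNRNPC and 4.17, 3.61 and 3.87 CPM in shcontrol. SYNE1, which encodes nesprin-1 and links the nucleus to actin, was at 8.58, 9.53 and 8.49 CPM in shHNRNPC and 15.5, 15.7 and 13.5 CPM in shcontrol. Neither gene's groups overlapped, with log2 fold changes of -0.83 and -0.74. DIAPH2, a formin that assembles actin filaments, was at 3.59, 4.39 and 4.41 CPM in shHNRNPC and 6.94, 6.58 and 7.37 CPM in shcontrol (adjusted p = 1.76e-05). CEP112, a centrosomal protein, was the fourth, with an adjusted p of 0.0267, which was 0.0511 without SI_3, 0.103 without SI_3_3, 0.0551 without NC_3 and 0.0623 without NC_3_3. With DESeq2 CEP112 was not called (adjusted p = 0.0858). With the GC and length offset neither AKAP6 (adjusted p = 0.0747) nor CEP112 (0.153) was called, which left 2 of the 6 lower. DMD, the dystrophin gene and at 2009 kb the longest gene tested, was at 8.82, 7.76 and 8.66 CPM in shHNRNPC and 9.35, 8.10 and 9.52 CPM in shcontrol. Its groups overlapped and it was not called (adjusted p = 0.46), with a 95% interval for the ratio of 0.798 to 1.09.

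The largest list held 34 genes of cell adhesion and axon guidance. Of 21 tested, 7 fell (33.3%) and 2 rose (9.52%), against 31.3% and 29.8% of all tested genes. The median log2 fold change of the list was -0.16. LPP, a LIM protein of focal adhesions, was at 63.2, 59.3 and 67.7 CPM in shHNRNPC, against 109, 114 and 112 CPM in shcontrol. It was 1.76-fold lower (adjusted p = 2.86e-21), the smallest adjusted p among the very long genes. PARD3B, a cell polarity protein, fell to 6.998, 8.10 and 8.09 CPM in shHNRNPC, against 11.5, 11.4 and 13.2 CPM in shcontrol. TENM2, a teneurin adhesion receptor, fell to 21.2, 20.7 and 17.6 CPM in shHNRNPC, against 23.6, 24.3 and 27.2 CPM in shcontrol. NRXN3, a presynaptic neurexin of 1692 kb, was at 1.76, 2.23 and 2.38 CPM in shHNRNPC and 3.18, 3.04 and 3.01 CPM in shcontrol, and was called at an adjusted p of 0.0269, which was 0.124 without SI_3, 0.0645 without NC_3, 0.0842 with DESeq2 and 0.427 with the GC and length offset. SEMA5A, a semaphorin, had an adjusted p of 0.00806, which was 0.0758 without NC_3 and 0.222 with the GC and length offset. The other 12 tested genes of this list were not called, among them CSMD1 and GPC6, both longer than 1000 kb.

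Some relatives within this list had different calls. TENM2 fell and TENM4 rose, while TENM3, the most abundant teneurin, was at 77.3, 71.9 and 72.5 CPM in shHNRNPC and 67.8, 74.5 and 71.1 CPM in shcontrol. The groups of TENM3 overlapped, and the 95% interval for its ratio was 0.978 to 1.10, although with the GC and length offset it was called higher (log2 fold change 0.19, adjusted p = 1.76e-04). The receptor tyrosine phosphatase PTPRG was lower (log2 fold change -0.32, adjusted p = 5.36e-04, and 0.633 with that offset), whereas PTPRM was at 83.4, 80.0 and 80.1 CPM in shHNRNPC and 81.2, 84.7 and 82.4 CPM in shcontrol, with an interval of 0.928 to 1.04. The scaffold protein MAGI1 was called lower (log2 fold change -0.29) and MAGI2 was not called (-0.05). PARD3, with a log2 fold change of 0.04, was likewise not called beside PARD3B. No test of the difference between such pairs was made. These pairs were chosen after their values were seen.

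Of 5 tested regulators of small GTPases, SBF2, AGAP1 and DOCK1 fell and DOCK3 rose. AGAP1, an activator of GTP hydrolysis by ARF proteins, was at 67.5, 67.0 and 68.5 CPM in shHNRNPC and 98.8, 94.99 and 95.2 CPM in shcontrol (adjusted p = 6.68e-15). SBF2, a myotubularin-related protein that activates Rab GTPases, was at 21.6, 20.1 and 22.5 CPM in shHNRNPC and 33.3, 29.7 and 32.0 CPM in shcontrol. The Rac activators DOCK1 and DOCK3 moved in opposite directions. DOCK1 was at 43.1, 42.4 and 42.8 CPM in shHNRNPC, against 48.0, 49.0 and 50.8 CPM in shcontrol, and DOCK3 was at 31.8, 31.8 and 32.1 CPM in shHNRNPC, against 25.5, 29.5 and 25.8 CPM in shcontrol. Neither difference reached 1.25-fold, and in neither gene did the groups overlap.

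Among 9 tested genes of growth factor signalling and kinases, 2 fell (22.2%) and 1 rose (11.1%), against 31.3% and 29.8% of all tested genes. PRKCA, which encodes protein kinase C alpha and was the most counted of the very long genes, was at 97.4, 97.9 and 97.1 CPM in shHNRNPC, against 126, 127 and 129 CPM in shcontrol. The difference was small beside that of AFF3 but far larger than the spread between libraries (1.31-fold lower, adjusted p = 4.38e-13). PRKCE, another protein kinase C, was not called (log2 fold change 0.06). INPP4B, a phosphoinositide phosphatase, was lower at 3.23, 3.77 and 3.45 CPM in shHNRNPC and 4.82, 5.38 and 6.30 CPM in shcontrol (adjusted p = 4.60e-04, and 0.278 with the GC and length offset). ADK, which this list holds but which encodes the metabolic enzyme adenosine kinase, was called higher (1.16-fold, adjusted p = 0.00732, and 0.0686 without NC_3).

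The vesicle traffic, autophagy and ubiquitin list had 7 tested genes, of which 2 fell (28.6%) and 1 rose (14.3%). Over all tested genes 31.3% fell and 29.8% rose. VPS13B, a lipid transfer protein of the Golgi whose loss causes Cohen syndrome, was at 10.3, 7.93 and 8.88 CPM in shHNRNPC, against 16.5, 18.9 and 16.4 CPM in shcontrol. It was 1.91-fold lower (adjusted p = 4.81e-11), second to AFF3. LRBA, a BEACH domain protein that protects CTLA4 from lysosomes in lymphocytes, was at 21.9, 23.8 and 22.0 CPM in shHNRNPC, against 36.7, 35.4 and 37.6 CPM in shcontrol. FAF1, a cofactor of the segregase VCP, was called higher by 1.11-fold (adjusted p = 0.0383), but its adjusted p was 0.120 without SI_3_2, 0.0666 without SI_3_3, 0.0869 without NC_3 and 0.121 without NC_3_3.

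The list of channels and transporters had 7 tested genes, among them GRM8, a metabotropic glutamate receptor that is neither. Where 31.3% of all tested genes fell and 29.8% rose, only KCNQ5, a voltage-gated potassium channel, was called. It was at 10.95, 9.64 and 9.39 CPM in shHNRNPC, against 15.9, 15.9 and 16.5 CPM in shcontrol (adjusted p = 2.77e-08). Of 7 tested metabolic genes WWOX fell (14.3%), and GALNT13 and IMMP2L rose (28.6%), against 31.3% and 29.8% of all tested genes. WWOX, an oxidoreductase at the fragile site FRA16D that spans 1113 kb, was at 15.2, 16.7 and 13.7 CPM in shHNRNPC and 18.5, 19.6 and 20.1 CPM in shcontrol (adjusted p = 3.98e-04). GMDS, which makes GDP-fucose, did not differ beyond the spread, with 34.9, 33.0 and 33.7 CPM in shHNRNPC and 36.1, 33.3 and 34.7 CPM in shcontrol. The single RNA-binding gene tested, RBMS3, was not called, nor were RAD51B and CDKAL1 of the repair and cell cycle list. CDKAL1 is on that list but encodes an enzyme that modifies tRNA. RAD51B was, however, called higher with the GC and length offset (adjusted p = 0.0364).

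Outside the 10 role lists stood 27 genes, of which 11 were tested. Of these 3 fell (27.3%) and 2 rose (18.2%), against 31.3% and 29.8% of all tested genes. RIMS2, a scaffold of synaptic vesicle release, was at 5.17, 6.22 and 6.39 CPM in shHNRNPC, against 9.23, 11.8 and 10.9 CPM in shcontrol. CLSTN2, a calsyntenin of the postsynaptic membrane, was at 7.73, 7.76 and 9.39 CPM in shHNRNPC, against 14.1, 15.6 and 13.9 CPM in shcontrol. Both were called, with log2 fold changes of -0.84 and -0.80. SCAPER, which binds cyclin A, was the third to fall (adjusted p = 0.0119), with an adjusted p of 0.0592 without SI_3_2, 0.0565 without NC_3_2 and 0.152 with the GC and length offset.

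**Figure D2:**
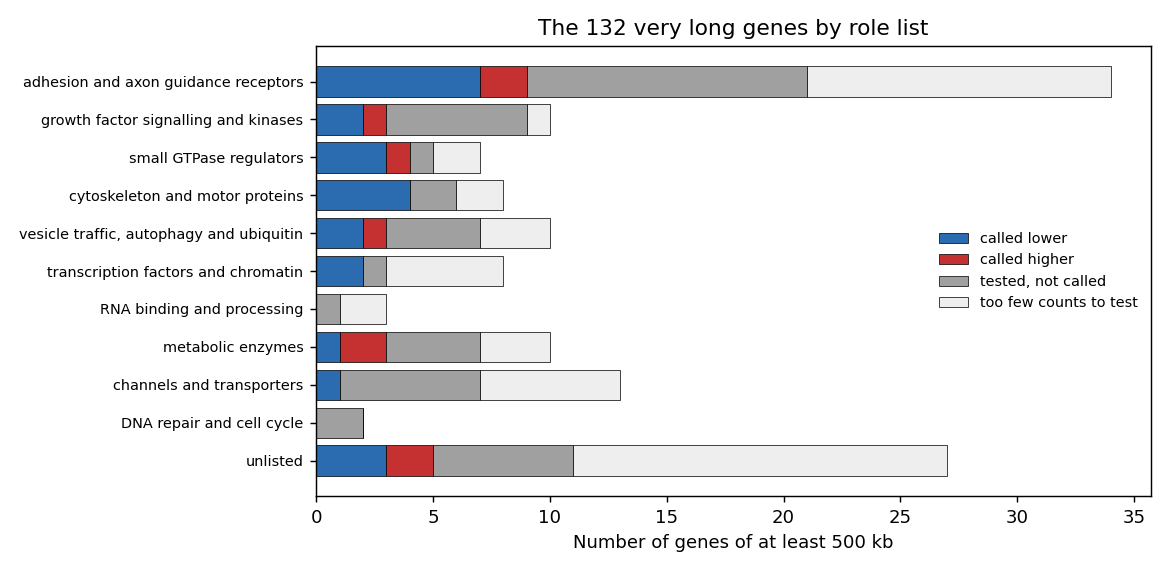
Number of very long genes in each role list (horizontal axis, genes), split into those called lower, called higher, tested but not called, and too seldom counted to test. The adhesion and axon guidance list is the largest, with 34 genes of which 7 were called lower and 2 higher.

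Of the 9 genes that rose, 5 averaged under 5 CPM. DLGAP1, a scaffold of the postsynaptic density, was at 2.74, 2.34 and 2.32 CPM in shHNRNPC, against 0.941, 0.633 and 1.18 CPM in shcontrol. It was 2.63-fold higher with an SE of 0.275 on the log2 scale (adjusted p = 2.37e-05). ULK4, a kinase-like protein of cilia, was at 5.96, 4.68 and 4.92 CPM in shHNRNPC and 3.53, 1.71 and 3.34 CPM in shcontrol (1.79-fold, adjusted p = 1.56e-04). In both genes every shHNRNPC library was above every shcontrol library. GALNT13, which starts O-linked glycosylation, was at 3.71, 3.02 and 3.56 CPM in shHNRNPC and 2.12, 2.28 and 2.42 CPM in shcontrol. TENM4 stayed under 1 CPM in every library, with a mean of 0.949 CPM in shHNRNPC and 0.445 CPM in shcontrol (adjusted p = 0.0195, 0.0829 without NC_3 and 0.0656 with DESeq2). IMMP2L, a peptidase of the mitochondrial inner membrane, was 1.29-fold higher (adjusted p = 0.0388), with an adjusted p of 0.0662 without SI_3, 0.179 without SI_3_2 and 0.241 without NC_3_3. KIRREL3, an adhesion molecule, was called at an adjusted p of 0.0495, and its groups overlapped. Its adjusted p was 0.0856 without SI_3, 0.317 without SI_3_2, 0.106 without NC_3_2 and 0.275 without NC_3_3.

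**Figure D3:**
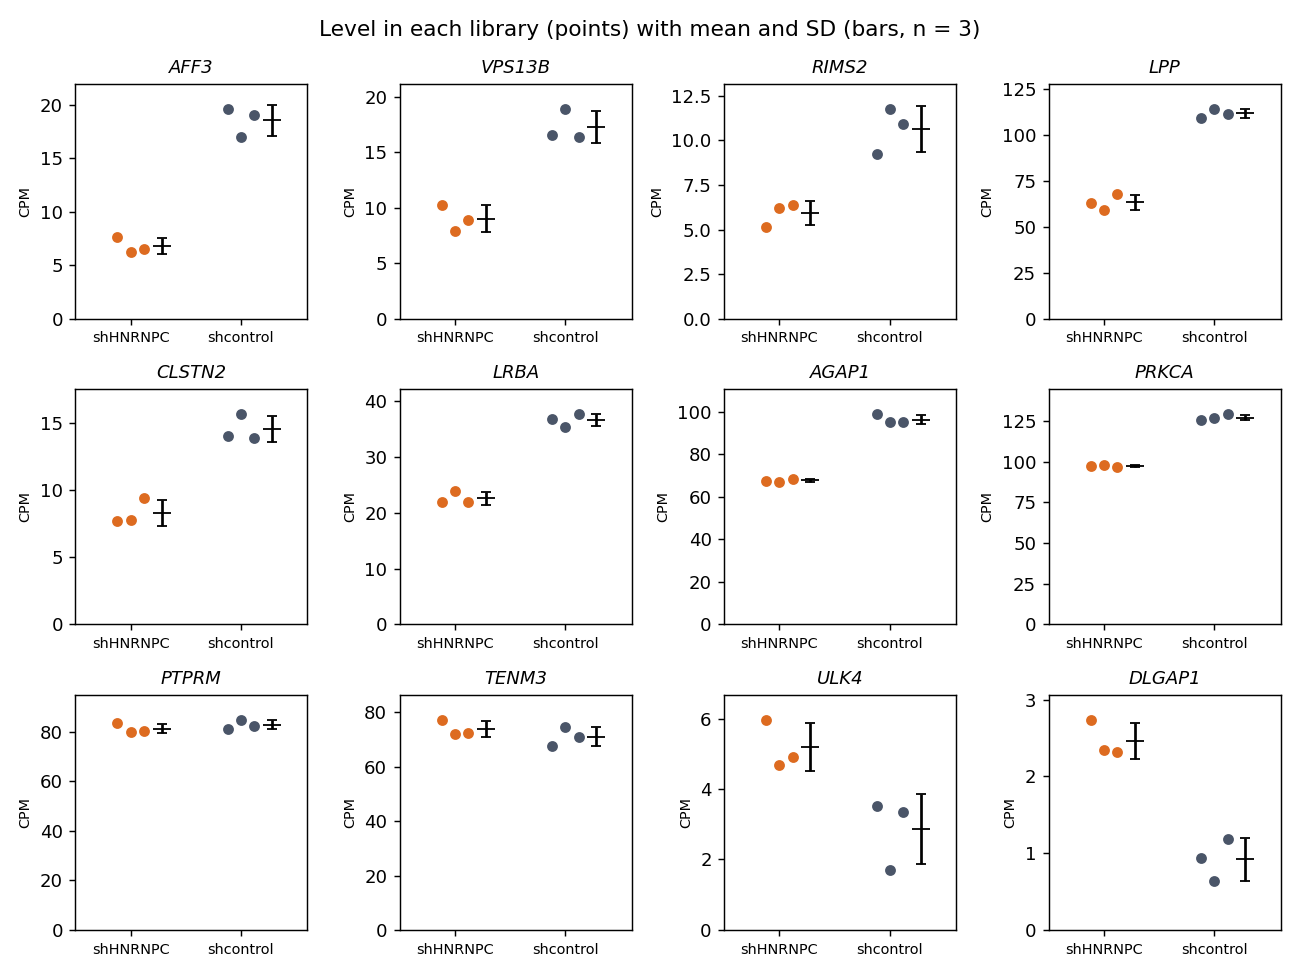
Level in CPM (vertical axes, each starting at 0) in each of the 3 shHNRNPC and 3 shcontrol libraries for 12 very long genes, with the mean and SD beside the points. AFF3 to PRKCA are lower in every shHNRNPC library, PTPRM and TENM3 overlap, and ULK4 and DLGAP1 are higher in every shHNRNPC library.

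The summed level of the 79 tested genes was 1112 ± 10.1 CPM in shHNRNPC and 1319 ± 10.7 CPM in shcontrol (SD, n = 3 each), 84.3% of the shcontrol sum. LPP, AGAP1 and PRKCA, picked after their values were seen, made up 229 CPM of it in shHNRNPC and 335 CPM in shcontrol. The other 76 genes summed to 884 CPM in shHNRNPC and 984 CPM in shcontrol, 89.8% of the shcontrol sum.

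Calls differed with the count level. At a mean of at least 5 CPM there were 44, of which 20 were called lower (45.5%) and 4 higher (9.09%), with a median log2 fold change of -0.17. Over all tested genes at that level 35% were called lower and 32.7% higher. Under 5 CPM 35 very long genes were tested, and 5 fell and 5 rose (14.3% each), close to the 14.7% and 16.6% of remaining genes at that level. Of the 45 genes not called, 26 had a 95% interval within 1.5-fold of no change on either side, which includes all 9 at 20 CPM or more but only 6 of the 25 under 5 CPM. The other 19 could have changed by 1.5-fold without being called.

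Very long genes were also set beside remaining genes of like mean level, as a description with no test. From 5 to 20 CPM, 10 of 22 were called lower and 1 higher, against 39.2% lower and 20.1% higher among 2824 remaining genes, with median log2 fold changes of -0.23 and -0.11. From 20 to 100 CPM, 9 of 21 were called lower and 3 higher, against 37.3% and 30.8% of 4436 remaining genes, with medians of -0.04 and -0.02. From 1 to 5 CPM, 5 of 31 were called lower and 4 higher, against 17.3% and 16.02% of 1610 remaining genes. There were 4 very long genes under 1 CPM and 1 over 100 CPM, too few to compare.

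The share of genes called changed with deposited span well below 500 kb. By that span the longest genes did not stand at the end of a rising series. Genes with a deposited position that reach 500 kb only by GENCODE 29 span fall in the shorter bands. By GENCODE span, 150 tested genes reached 500 kb, with 34.7% called lower and 12% higher. Among tested genes under 10 kb, 16.4% were called lower and 42.0% higher. From 10 to 50 kb these shares were 28.96% and 31.8%, from 50 to 100 kb 45.2% and 19.99%, from 100 to 200 kb 52.1% and 13.3%, and from 200 to 500 kb 47.1% and 12.7%. At 500 kb and over they were 31.6% and 11.4%. Restricted to genes of at least 5 CPM, the share called lower was 17.8%, 32.1%, 50.1%, 58.6% and 55.2% over the same 5 bands, and 45.5% at 500 kb and over. The median log2 fold change was 0.11 under 10 kb, -0.24 from 200 to 500 kb and -0.11 at 500 kb and over. With the GC and length offset it was -0.083 from 200 to 500 kb and -0.048 at 500 kb and over. Over all tested genes it was -0.019 with that offset. Without SI_3_3 the median at 500 kb and over was -0.24, against -0.23 from 200 to 500 kb, and without NC_3 these medians were -0.22 and -0.24.

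**Figure D4:**
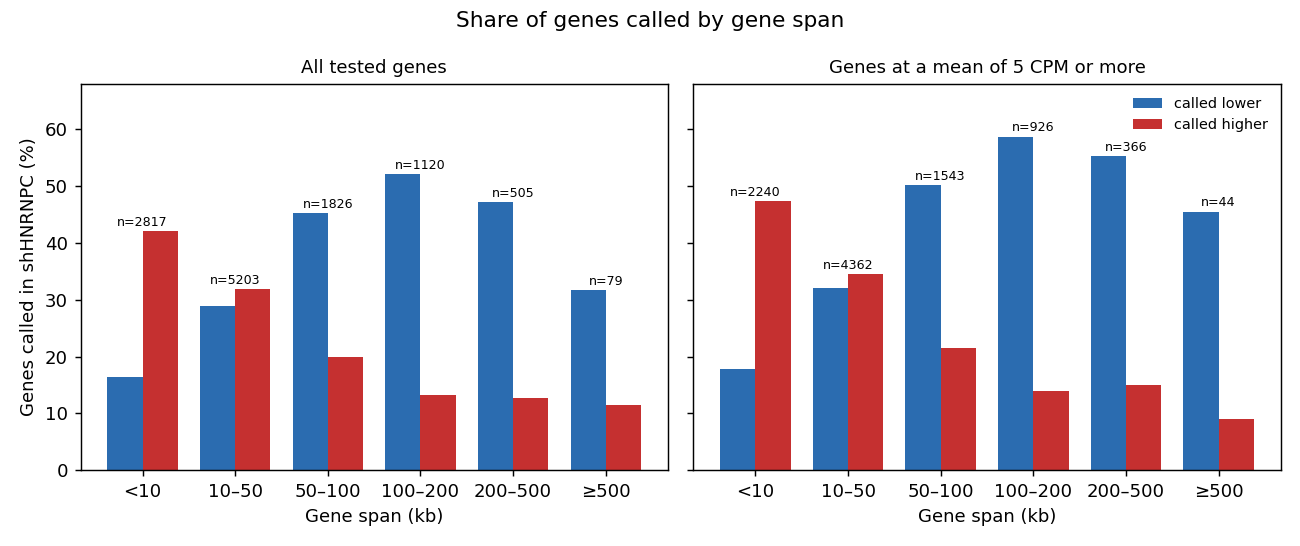
Share of genes called lower and called higher in shHNRNPC (vertical axis, percent) by deposited span of the gene (horizontal axis, kb). All tested genes are on the left and those of at least 5 CPM on the right. The share called lower is highest from 100 to 200 kb, at 52.1% of all tested genes and 58.6% at 5 CPM or more.

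Within the set, fold changes hardly went with span. Spearman's correlation between span and log2 fold change was -0.05 over the 79 tested genes, against -0.31 over 11550 tested genes of any span. The same correlation with transcript length was -0.36 over the 79 and -0.53 over the 44 at 5 CPM or more. Over all tested genes it was -0.32, and -0.35 over those at 5 CPM or more. With GC content of the transcript it was 0.28 over the 79 and 0.44 over all tested genes. All points come from the same 6 libraries, and transcript length, base composition and count level go together. Of the 6 tested genes over 1000 kb, NRXN3 and WWOX fell and DMD, GPC6, CDH12 and CSMD1 were not called. Just inside the 500 kb limit, CDK14 was not called (adjusted p = 0.0951, and 0.0129 without SI_3_2), AKAP6 fell and CPNE4 was not tested. Just outside it, ERC1 fell, PDE4D was not called and STXBP5L was not tested.

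Very long genes also have long mature transcripts. Their longest coding transcripts had a median of 6880 bases and 21 exons, against 3484 bases and 9 exons in the remaining tested genes, and a median GC content of 46.6% against 48.4%. The 25 genes that fell had a median transcript length of 8831 bases and the 9 that rose one of 5536 bases. Of the tested genes with transcripts of more than 14000 bases, SYNE1, LPP, AKAP6, CLSTN2 and VPS13B fell and RYR3 was not called (log2 fold change 0.39). TENM4, at 14000 bases, rose. DMD and CSMD1, at 13956 and 13512 bases, were not called (log2 fold changes -0.10 and 0.21). The limit of 14000 bases was not set in advance, and no share of the remaining genes above it is given here. Between the quartiles of the very long genes' transcript length, 12 of 39 were called lower (30.8%) and 5 higher (12.8%), with a median log2 fold change of -0.10. Among 3419 remaining genes in the same range of transcript length, 45.5% were called lower and 19.8% higher, with a median of -0.14. Both shares were thus smaller in the very long genes at like transcript length, and their median level was also lower, at 5.55 CPM against 25.4 CPM. No test of these differences was made.

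**Figure D5:**
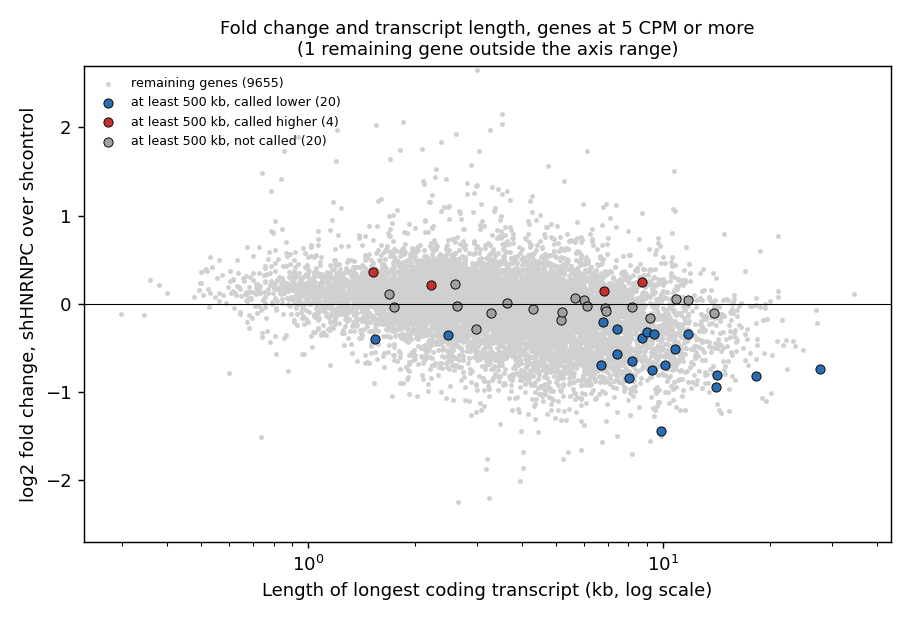
Log2 fold change (vertical axis, shHNRNPC over shcontrol) against the length of the longest coding transcript (horizontal axis, kb, log scale) for genes of at least 5 CPM, with the 44 very long genes outlined and the remaining genes in light grey. The 20 very long genes called lower lie mostly to the right, within the cloud of remaining genes of like transcript length.

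The genes shown above were picked for a uridine run, so its presence in both directions came from that choice. Of 36 tested very long genes with a run of at least 9 U in the transcript, 13 were called lower and 3 higher, with a median log2 fold change of -0.19. Of the 43 without one, 12 were called lower and 6 higher, with a median of -0.09. Among the remaining genes 42.6% of those with a run were called lower, against 25.96% of those without. Of the 5 very long genes with the antisense Alu letters, AFF3, LPP and NRXN3 fell, FAF1 rose and TTC28 was not called. Among 853 remaining genes with these letters 40.8% were called lower and 22.5% higher. A match is a description of the letters in an annotated transcript, and which transcripts these cells make was not determined.

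Genes known to act on transcription through long genes were read from a list of 59 factors, of which 54 were tested. The list holds HNRNPC itself, and without it 27 of 53 were called lower and 13 higher, with a median log2 fold change of -0.12, where 31.3% of all tested genes were called lower and 29.8% higher. TOP2A, a topoisomerase of dividing cells, was at 111, 110 and 110 CPM in shHNRNPC, against 172, 177 and 173 CPM in shcontrol. TOP1, which removes supercoils ahead of the polymerase, was at 87.4, 85.2 and 86.8 CPM in shHNRNPC, against 135, 124 and 121 CPM in shcontrol. ELL2, an elongation factor, was 1.82-fold lower and AFF4 1.52-fold lower. Whether these changes bear on the very long genes was not tested.

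Counts could not always be given to 1 gene. Another coding gene lies within or across 23 of the 132 very long genes, 17 of them tested, and a gene of any kind overlaps 120 of the 132. VPS13B, RIMS2, SYNE1, LRBA, DOCK1 and ULK4 are among those with a coding overlap. Whether strand was used in counting is not given in the sources used here, so reads of a gene on the other strand may be included.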

How the data were processed

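RNA of 6 MHCC97H samples was sequenced, and the authors deposited raw read counts, seen from the values to be whole numbers. STAR, HTSeq 0.6.0 and DESeq2 are named, per the submitters' processing notes. The sources used here do not name the genome build, annotation or strand setting. The authors' own log2 fold changes and adjusted p-values stand beside the counts in their deposited table. Columns SI_3, SI_3_2 and SI_3_3 were assigned to shHNRNPC and NC_3, NC_3_2 and NC_3_3 to shcontrol, as groups, and 24 other columns of per-library values were not used.

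Low counts were removed with filterByExpr, libraries were scaled by TMM, and all 11831 remaining genes were fitted in edgeR 4.0.16 (R 4.3.3) with glmQLFit and glmQLFTest, adjusted by Benjamini-Hochberg with a threshold of 0.05. SEs are from the fold change and the F statistic, and 95% intervals are 1.96 SE wide on each side. The code was tested on simulated data. Transcript features are of the longest coding transcript in GENCODE 29. Gene positions are as deposited, and for all 132 very long genes they overlap GENCODE 29 (GRCh38).

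Members, lists and tests were chosen with earlier results of these data known. Genes named are HNRNPC, up to 10 highest (7 met the rule) and 10 lowest fold changes called without overlap at 1 CPM or more, the 6 longest and 6 most counted tested genes, up to 3 genes per role list and 6 elongation factors by adjusted p, and 3 genes on each side of the span limit. Other genes were named after their values were seen, and 1 gene that the rule takes is not reported here. Alternatives were other scalings, filters, DESeq2 1.42.0, a test against 1.5-fold, a GC and length offset, other span limits and leaving out each library.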

Additional observations from a re-analysis of the deposited data

How the results depend on the processing

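No count or median over the very long genes changed its direction under another setting. The median log2 fold change, -0.11, was -0.15 with scaling by library size alone, -0.16 with no filter, -0.15 at a mean of at least 1 CPM, -0.048 with the GC and length offset, -0.20 for a span of at least 400000 bases, -0.17 for at least 1000000, and, added after seeing the data, -0.17 with spans from GENCODE 29 and -0.17 at 5 CPM or more. Over all tested genes the median was -0.004 in the main setting, -0.044 with library size alone, 0.005 with no filter and -0.019 with the offset. Leaving out 1 library gave a median of -0.24 to -0.11 for the very long genes, with -0.24 without SI_3_3 and -0.22 without NC_3. The 9 genes called higher were 5 with DESeq2, 6 with library size alone and at a mean of at least 1 CPM, and 6 to 9 with a library left out (6 without SI_3_2, NC_3 or NC_3_3). Of 143 tested genes with a span of at least 400000, 20 were called higher and 58 lower (40.6%), of 6 at 1000000 0 and 2 (33.3%), and of 150 by GENCODE spans 18 and 52 (34.7%). At 5 CPM or more 4 were higher. The 25 called lower were 29 with library size alone and 23 to 26 with a library left out. The GC and length offset gave 11 higher and 20 lower. In a test against 1.5-fold, 1 was higher (DLGAP1) and 3 lower (AFF3, VPS13B, LPP), and among all genes 217 were higher and 391 lower. Of the 34 called genes, 22 were called in every planned refit other than the 1.5-fold test, 18 of them lower and 4 higher. KIRREL3, FAF1, CEP112, IMMP2L and NRXN3 lost their call most often. The cause of these changes was not tested. No paired analysis was possible because the columns carry no replicate number of the sample titles. Precision is limited by depth under 5 CPM.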
